A study of Caenorhabditis elegans with 2 samples.

Results

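The 10 genes examined encode enzymes of core glycolysis in the worm Caenorhabditis elegans. They are the hexokinase genes hxk-1, hxk-2 and hxk-3, the glucose-6-phosphate isomerase gene gpi-1, the phosphofructokinase gene pfk-1.1, the aldolase genes aldo-1 and aldo-2, the triosephosphate isomerase gene tpi-1, the phosphoglycerate mutase gene ipgm-1 and the enolase gene enol-1. They were chosen by name from 19985 annotated protein-coding genes, with earlier results of these data known, and all 10 had an Ensembl model. Binding of HIF-1, the worm hypoxia-inducible factor, was mapped by chromatin immunoprecipitation and sequencing in 1 group with 2 biological replicates. The animals were whole OR3350 hermaphrodites at the fourth larval stage, taken 55 h after synchronisation as starved first-stage larvae, and carried HIF-1 tagged with GFP and FLAG at its C-terminal end. Both replicates came from this 1 transgenic line, the labels name neither an oxygen condition nor the promoter of the transgene, and no condition was compared. Whole animals were used, so a peak cannot be assigned to a tissue.

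Glycolysis splits glucose into pyruvate and yields ATP without oxygen. Hexokinase adds the first phosphate, the isomerase and phosphofructokinase prepare the sugar for cleavage, and aldolase cleaves it into a pair of triose phosphates that triosephosphate isomerase interconverts. Phosphoglycerate mutase and enolase act late in the pathway. In mammals, many genes of glycolytic enzymes are classical targets of HIF-1, which binds as a dimer to the core of the hypoxia response element, written here as ACGTG or GCGTG. In worms the partner of HIF-1 in this dimer is AHA-1, and HIF-1 is degraded when oxygen is plentiful.

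The sequences around the summits of 3 thresholded peaks that lie outside untranslated sequence are shown first, because they carry the feature that the 9 genes with a pooled peak shared. Each is 101 bp long, centred on the summit of the pooled peak and given 5′ to 3′ on the strand of the gene, from the RefSeq sequence of WBcel235. Capitals mark the core on either strand. The tpi-1 window is the minus strand of chrII:12040379-12040479, between genes. The aldo-1 window is the minus strand of chrIII:13565103-13565203, between genes. The enol-1 window is the plus strand of chrII:8931542-8931642, in an intron.
tpi-1: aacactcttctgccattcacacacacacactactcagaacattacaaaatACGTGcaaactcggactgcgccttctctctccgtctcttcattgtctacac
aldo-1: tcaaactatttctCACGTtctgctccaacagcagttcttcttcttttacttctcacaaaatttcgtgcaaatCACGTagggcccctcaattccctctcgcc
enol-1: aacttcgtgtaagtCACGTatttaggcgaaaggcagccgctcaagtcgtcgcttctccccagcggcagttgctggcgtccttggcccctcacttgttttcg

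For 3 further genes, 29 bp around the core nearest to the summit are shown, to compare the letters at a thresholded peak (hxk-3) with those at weak pooled peaks (aldo-2 and pfk-1.1). The hxk-3 site lies in the 5′ UTR on the plus strand of chrIV:1497686-1497714. The aldo-2 site is on the minus strand of chrIII:5877067-5877095 and overlaps an exon of the neighbouring gene mig-21. The pfk-1.1 site is on the plus strand of chrX:2939270-2939298 and overlaps an exon of the noncoding RNA gene Y71H10A.3.
hxk-3: tcttcaattctgCACGTGcggactgccct
aldo-2: tgattcaaatcCACGTGactatccttctc
pfk-1.1: aatgcgttttggCACGTcgaaaacattga

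The authors' thresholded set on ce11 held 631 peaks that passed their reproducibility analysis, with signal values from 54.1 to 2273. Signal is the authors' own value per peak, and its formula is not given in the sources. The authors' relaxed lists, which hold peaks and background, had 13935 entries in replicate 1, 13823 in replicate 2 and 6541 from both replicates' reads together (the pooled list). Every summit from 5 kb upstream of a gene start to 1 kb past its end was taken as lying in the gene's window. The depth is unknown, since peak lists carry no read counts, and with 1 group no test was made. The authors chose the thresholded set for reproducibility between these replicates, so its agreement between them is not independent. The lists differ in their signal scales, and levels were compared between genes within a list.

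HIF-1 peaks of the thresholded set lay at 5 of the 10 glycolytic genes, at 5 different steps: hxk-3, aldo-1, tpi-1, ipgm-1 and enol-1. A thresholded summit lay in the windows of 5.72% of all protein-coding genes, and of 5.92% of the 11805 genes whose windows were in the length range of these 10 genes (7.59 to 18.4 kb). The same 5 genes had the nearest gene start to a thresholded summit, as 2.74% of all protein-coding genes did. At 3 of them, hxk-3, aldo-1 and ipgm-1, the summit lay at the promoter, taken as 1000 bp upstream to 200 bp downstream of the gene start, which held for 1.97% of all protein-coding genes. The 5 other genes, hxk-1, hxk-2, gpi-1, pfk-1.1 and aldo-2, had no thresholded summit in their windows. The windows of the 10 genes held 5.31 thresholded summits per 100 kb, against 0.722 per 100 kb over the windows of all protein-coding genes.

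**Figure D1:**
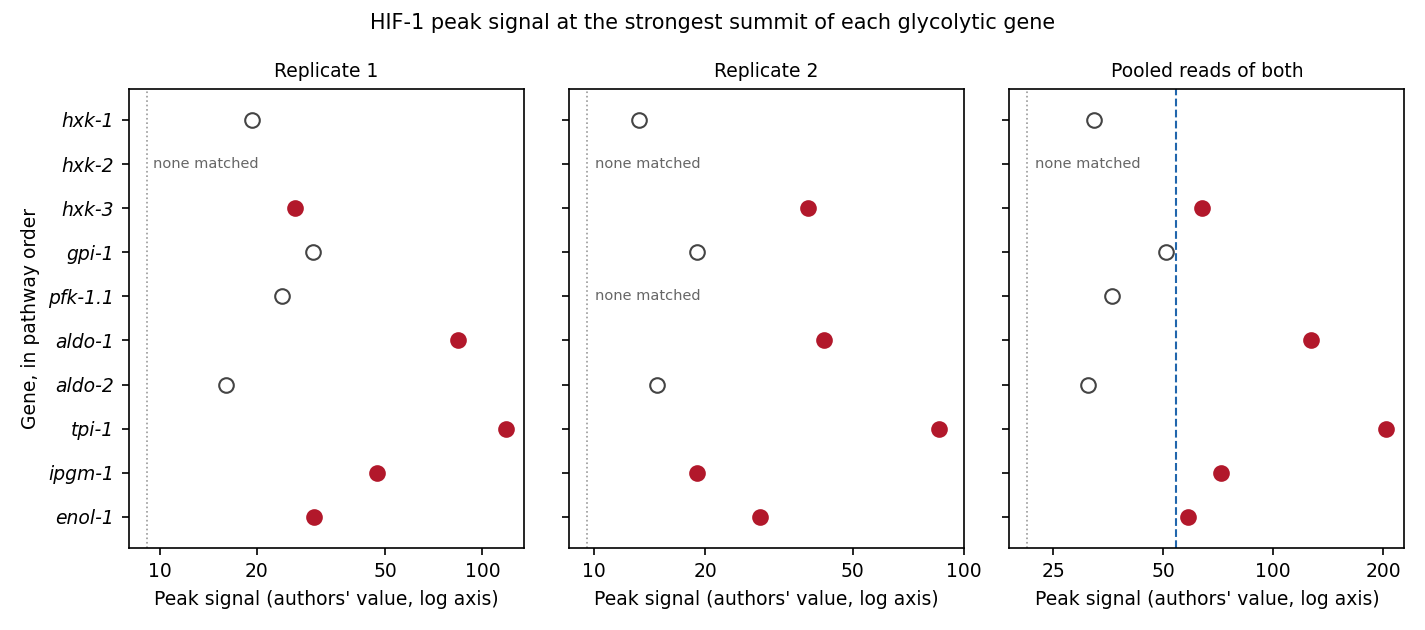
Signal (log axis, the authors' value) of the strongest pooled summit of each gene whose start was the nearest to it (right panel), and of a summit within 100 bp of it in replicate 1 (left) and replicate 2 (middle), with "none matched" where there was none. Filled circles are thresholded peaks, the dashed line is their lowest signal (54.1), dotted lines are the lowest signal of each list, and tpi-1 is highest in all 3 panels.

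The tpi-1 gene (WBGene00006601, chromosome II, 12036835 to 12039139, minus strand), whose enzyme interconverts the triose phosphates, had the strongest peak of the 10 genes. Its signal was 118 in replicate 1, 85.5 in replicate 2 and 204 in the pooled list, where it ranked 55 of 6541. It was the highest of the 10 genes in all 3 lists. The summit lay 1290 bp upstream of the gene start (chromosome II, 12040207 to 12040650), outside the promoter window, and the next protein-coding gene start, that of ippk-1, was 2481 bp away. The peak is therefore counted at tpi-1 by the gene window and the nearest start but not by the promoter.

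The aldo-1 gene (WBGene00011474, chromosome III, 13563346 to 13564937, minus strand) followed, with a signal of 84.1 in replicate 1, 41.8 in replicate 2 and 127 in the pooled list (rank 123). It was second in all 3 lists among the 10 genes. The summit lay 216 bp upstream of the gene start (chromosome III, 13564931 to 13565374) in sequence with no annotated exon.

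The ipgm-1 gene (WBGene00019001, plus strand) encodes the cofactor-independent form of phosphoglycerate mutase, which is unlike the cofactor-dependent enzyme of mammals. Its peak had a signal of 47.0 in replicate 1, 19.0 in replicate 2 and 71.8 in the pooled list (rank 360), with the summit 61 bp upstream of the gene start (chromosome I, 6569274 to 6569717). The peak of hxk-3 (WBGene00022306, plus strand), a gene for the first step, had 26.3 in replicate 1, 38.0 in replicate 2 and 63.9 in the pooled list (rank 446), with the summit 62 bp downstream of the gene start, in the 5′ UTR (chromosome IV, 1497466 to 1497909). These peaks changed places between the replicates. The ipgm-1 peak ranked 255 in replicate 1 and 1650 in replicate 2, whereas the hxk-3 peak ranked 797 and 312, so their order was not stable over the replicates.

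The enol-1 gene (WBGene00011884, plus strand), for the enzyme that makes phosphoenolpyruvate, had the weakest of the 5 thresholded peaks in the pooled list, though not in either replicate, with 29.99 in replicate 1, 28.2 in replicate 2 and 58.5 in the pooled list (rank 545). The summit lay in an intron, 595 bp downstream of the gene start and 514 bp upstream of a later annotated transcript start (chromosome II, 8931370 to 8931813). The gpi-1 gene (WBGene00013597, plus strand), for the second enzyme of the pathway, missed the thresholded set by a small margin, with 29.96 in replicate 1, 19.0 in replicate 2 and 50.8 in the pooled list (rank 719). The last peak inside the set had 54.1. The gpi-1 summit lay likewise in an intron, 371 bp downstream of the gene start and 136 bp upstream of a later transcript start (chromosome I, 13576297 to 13576740). In the single replicates the thresholded peaks and gpi-1 overlapped in signal: gpi-1 was above hxk-3 in replicate 1 and level with ipgm-1 in replicate 2.

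**Figure D2:**
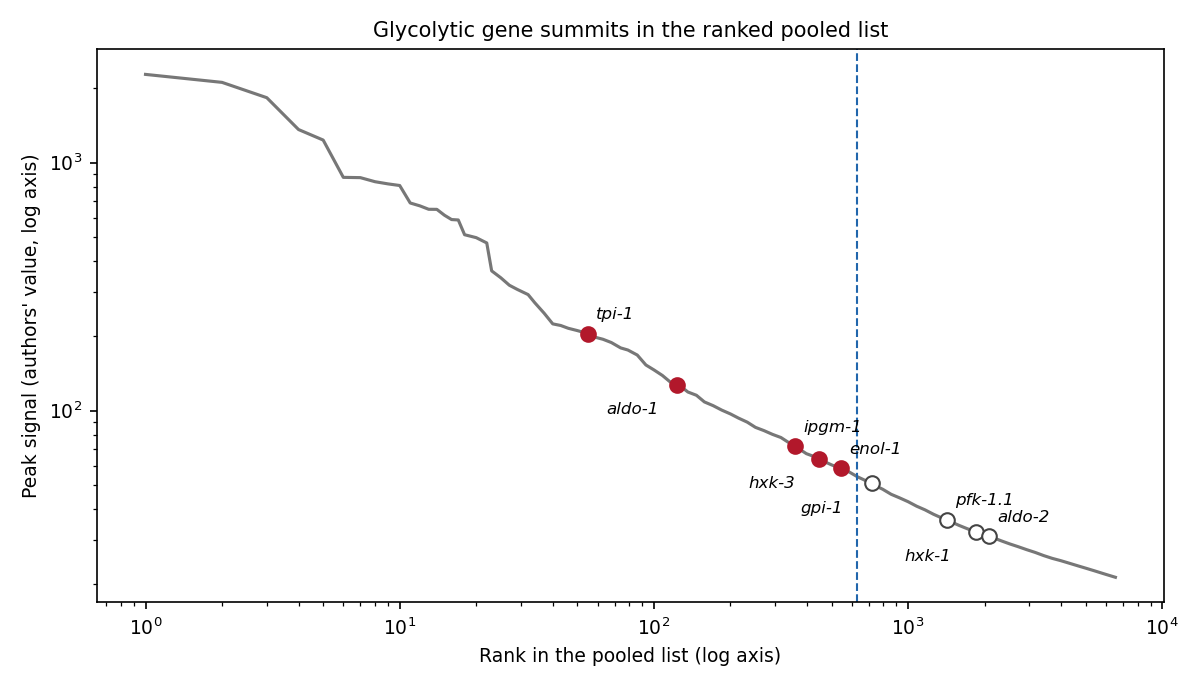
Signal against rank in the pooled list (both axes log), with the strongest pooled summit of each gene whose start was the nearest to it. Filled circles are thresholded peaks and the dashed line is the last rank of the thresholded set (631); tpi-1 and aldo-1 stand at ranks 55 and 123, ipgm-1, hxk-3 and enol-1 at 360 to 545, and gpi-1 at 719.

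The remaining genes had weak summits or none. The pfk-1.1 gene (WBGene00022199, plus strand), for the committed step of glycolysis, had a pooled summit of 36.1 (rank 1417) located 1541 bp upstream (chromosome X, 2939109 to 2939552), with 24.0 in replicate 1 and no summit within 100 bp of it in replicate 2. The hxk-1 gene (WBGene00008780, minus strand) had a summit of 32.3 (rank 1845) located 836 bp upstream (chromosome I, 9279303 to 9279746), with 19.3 in replicate 1 and 13.2 in replicate 2. The aldo-2 gene (WBGene00017166, minus strand) had a summit of 31.1 (rank 2078) located 477 bp upstream (chromosome III, 5876880 to 5877323), with 16.0 in replicate 1 and 14.9 in replicate 2. Their −log10 q-values in the pooled list were 1.00, 0.662 and 0.579, against a ceiling of 2.11 that all 5 thresholded peaks reached. The hxk-2 gene (WBGene00010416, chromosome I, 11311524 to 11323110, minus strand) had no summit in the pooled list or in replicate 1. In replicate 2 it had a summit of 10.8 located 65 bp downstream of its start (rank 9897 of 13823, −log10 q of 0.0586), which was also at the promoter of cdk-9, and another of 11.5 far inside the gene.

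In the relaxed lists, which hold background by design, 9 of the 10 windows had a pooled summit, against 39.6% of all protein-coding genes. For replicate 1 it was 9 of 10 against 65% of all protein-coding genes, and for replicate 2 it was 10 of 10 against 65.3%. At the promoter, 6 of 10 had a pooled summit against 12.2% of all protein-coding genes. The promoter count was 5 of 10 in replicate 1, against 20.5%, and 8 of 10 in replicate 2, against 19.7%. A replicate list alone thus marked the windows of most genes of any kind. Among the strongest pooled summits of the 9 genes that had one, 8 had a summit within 100 bp in both replicates, the exception being pfk-1.1. For the thresholded peaks this was 5 of 5, near the 94.5% of all thresholded peaks, which were chosen for reproducibility. For the others it was 3 of 4, against 41.0% of all pooled summits outside the thresholded set. That share is not of like summits, since it covers all of them, with a median signal of 25.5. The 4 here were the strongest of their genes, with signals of 31.1 to 50.8. The windows held 23 pooled summits, 37 of replicate 1 and 36 of replicate 2, of which 12, 21 and 18 had the listed gene as their nearest start.

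**Figure D3:**
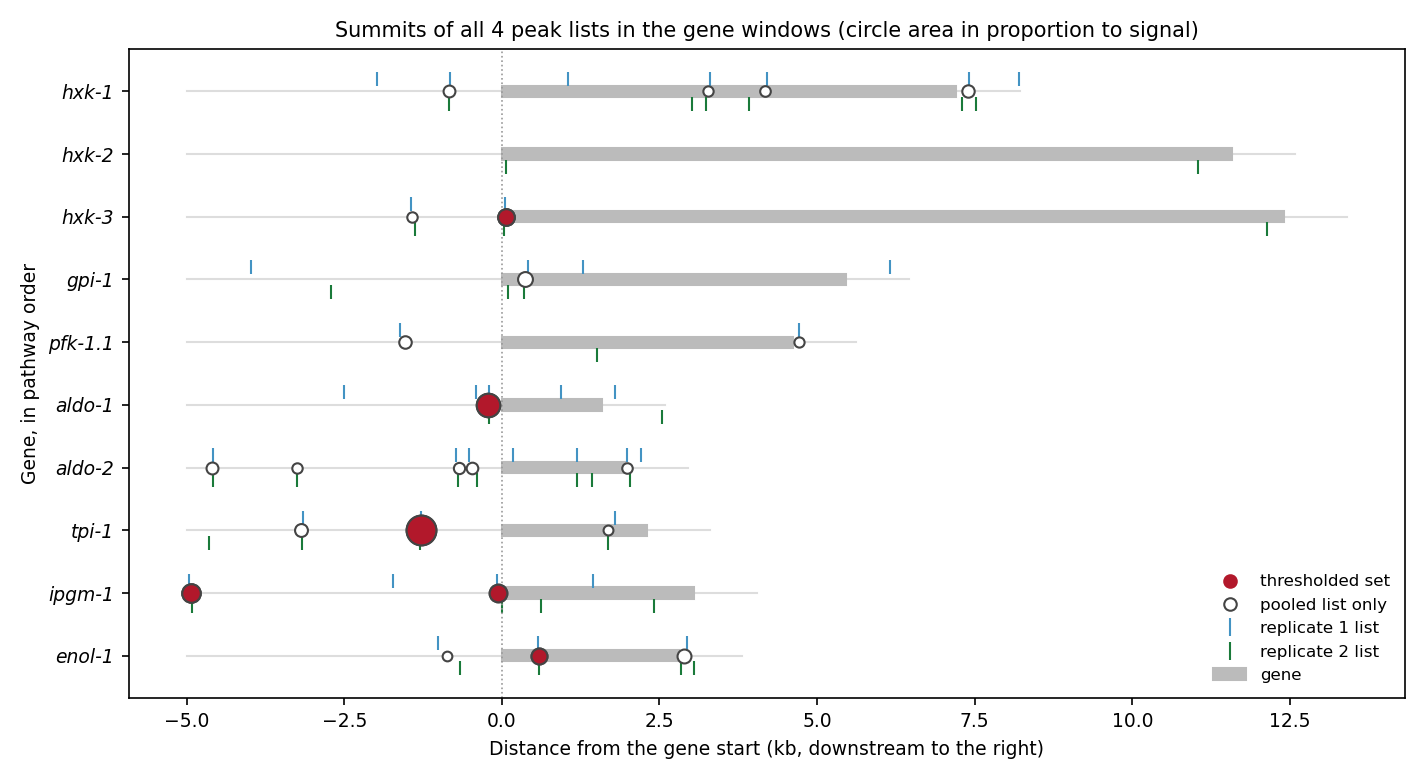
Summits of all 4 lists by distance from the gene start (kb), with 1 row per gene and the gene drawn as a grey bar. Circle area is in proportion to pooled signal, filled circles are thresholded, and ticks above and below the line are replicates 1 and 2. The thresholded circle 4934 bp upstream of ipgm-1 lies 172 bp upstream of bag-1, and hxk-2 has ticks of replicate 2 alone.

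Of the hexokinases, which share the first step, hxk-3 alone had a thresholded peak. The 3 proteins, translated from the annotated coding sequences, were 39.5% to 42.7% identical in pairs. The hxk-3 peak at the gene start had 26.3 and 38.0 in replicates 1 and 2. The hxk-1 summit had 19.3 and 13.2 and stayed below hxk-3 in both lists. The hxk-2 promoter had a summit in replicate 2 alone, the lowest of the 3 genes at 10.8. The letters of the core did not follow this order, since the promoter windows of hxk-1, hxk-2 and hxk-3 held 1, 2 and 2 sites.

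The aldolases were closer relatives, with 68.2% identity over 362 aligned residues, and aldo-1 alone of them had a thresholded peak. The aldo-1 peak had 84.1 in replicate 1 and 41.8 in replicate 2, whereas the strongest summit nearest to aldo-2 had 16.0 and 14.9. In both replicates aldo-1 was the higher. The window of aldo-2 held 5 pooled summits and that of aldo-1 held 1. The aldo-2 summits had signals of at most 32.8, and the one of 32.8 lay 4601 bp upstream, nearer to the start of F01F1.14. The promoter window of aldo-2 held 5 core sites, more than the 3 of aldo-1.

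The core was found within 50 bp of the strongest pooled summit nearest to the gene's own start in all 9 genes that had one, and in each of them as ACGTG. This did not hold for every replicate summit matched to them. The matched summits of aldo-2 in replicate 1 and of ipgm-1 in replicate 2 had no core within 50 bp. For pfk-1.1 no summit matched in replicate 2. Over all 23 pooled summits in the gene windows the core lay at 14 (60.9%), against 24.5% of all pooled nuclear summits. These sets differed in strength, since 6 of the 23 were thresholded, against 612 of the 6522 nuclear ones. The core lay at 46.9% of all thresholded nuclear summits and at 22.2% of the other pooled nuclear summits. The strongest pooled summits in the windows of ipgm-1 (78.9) and aldo-2 (32.8), both nearer to the starts of other genes, had none. Outside the mitochondrial genome, 4271 of all protein-coding genes had a pooled summit of their own, the strongest being taken for each. Of these, 24.8% held the core and 14.4% held ACGTG. Among the 488 whose own summit was thresholded, 47.7% held the core and 28.9% held ACGTG, against 5 of 5 for hxk-3, aldo-1, tpi-1, ipgm-1 and enol-1. Among the 3783 others, 21.9% held the core, against 4 of 4 for hxk-1, gpi-1, pfk-1.1 and aldo-2. The 3783 were not matched in signal to these 4, which had 31.1 to 50.8. All pooled nuclear summits outside the thresholded set had a median of 25.5. The other form, GCGTG, lay at 1 of the 9, gpi-1, a share near the 12.3% of the 4271. With the window moved by 500 bp, 1 of the 9 held the core on the left side and 2 on the right, near the 14.2% and 13.6% of all pooled nuclear summits. The median GC content of the 9 windows was 44.6%, against 40.6% for all pooled nuclear summits. Among thresholded peaks the direction was the other way, with 45.5% for the 5 glycolytic ones against 48.5% for all thresholded nuclear summits.

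The bases beside the core differed between these peaks. TACGTG, which contains ACGTG, lay within 50 bp of the summit at aldo-1, tpi-1, ipgm-1 and enol-1, which are 4 of the 5 thresholded peaks, against 13.5% of the 488 genes with a thresholded summit of their own. CACGTG, a palindrome that reads as ACGTG on both strands and was counted as 1 site, lay at hxk-3 and aldo-2. Of the 5 thresholded peaks this was 1 (hxk-3), against 8.40% of the 488 genes. Of the 4 weaker summits it was 1 (aldo-2), against 3.01% of the 3783 genes. AACGTG lay at hxk-1, gpi-1 and aldo-1, of which aldo-1 alone is thresholded, and GACGTG at pfk-1.1. Over all thresholded nuclear summits the shares of AACGTG and GACGTG were 6.86% and 5.88%. That set includes the aldo-1 summit but not those of hxk-1, gpi-1 and pfk-1.1, and no share over weaker summits is given. TACGTG lay at 0 of the 4 weaker summits, where the share over the 3783 genes was itself as low as 2.70%. The pooled summits of tpi-1 and ipgm-1 had a core centred 2 and 4 bp away. The replicate 2 summit of ipgm-1 had none within 50 bp. The cores nearest to the summits of hxk-3, aldo-1 and enol-1 were 12, 24 and 34 bp away, and that of pfk-1.1 was 47 bp away. Both aldo-1 and ipgm-1 had 2 separate sites, which makes 2 of the 5 thresholded peaks, against 13.1% of all thresholded nuclear summits with at least 2. So did gpi-1 among the 4 weaker summits, against 3.21% of all pooled nuclear summits outside the thresholded set. These shares are over all summits, not over the strongest of each gene.

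**Figure D4:**
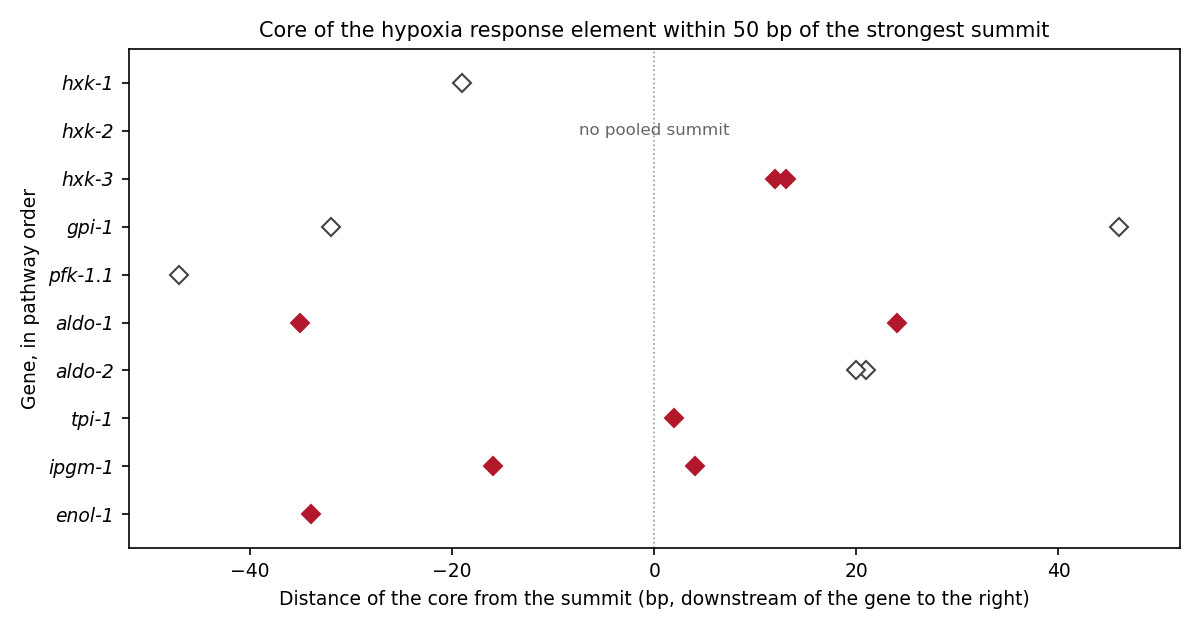
Position of each core (diamond) relative to the strongest pooled summit of each gene, in bp along the gene's direction, within 50 bp. Filled diamonds belong to thresholded peaks; tpi-1 and ipgm-1 have a core within 4 bp of the summit, and the palindromes of hxk-3 and aldo-2 show as touching diamonds.

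The core was common in promoters of all kinds. It lay in the promoter windows of 9 of the 10 genes, against 82.1% of all protein-coding genes, with a median of 2 sites in both. At least 4 sites lay in the windows of gpi-1, aldo-2 and enol-1, which are 30% of the 10 genes, against 14.9% of all protein-coding genes. The gene with no core there was tpi-1, the one with the strongest peak, whose promoter window had 0 sites and whose core lay at the summit 1290 bp upstream.

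Other genes of the pathway were read from lists given in the same way. Of 9 further glycolytic genes, which were pfk-1.2, gpd-1 to gpd-4, pgk-1, pyk-1, pyk-2 and ldh-1, 0 had a thresholded summit at the promoter. In the gene window 5 of the 9 had one, against 5.72% of all protein-coding genes, with gpd-2 and gpd-3 counted through the same peak. Only that of ldh-1, the lactate dehydrogenase gene, had the listed gene as its nearest start, against 2.74% of all protein-coding genes. The ldh-1 summit lay in an intron 427 bp downstream of the start, with a pooled signal of 123, of 75.0 in replicate 1 and 52.1 in replicate 2. The glyceraldehyde-3-phosphate dehydrogenase genes gpd-2 and gpd-3 share a peak of 294 (184 in replicate 1 and 113 in replicate 2) located 175 bp downstream of the start of mai-1. It was above that of every one of the 10 genes and held the core. The annotated starts of gpd-2 and gpd-3 lay 1725 and 3073 bp downstream of this summit, and as background, mai-1, gpd-2 and gpd-3 form a classical operon. The window summits of gpd-1 (61.2) and of the pyruvate kinase gene pyk-1 (65.3) lay far upstream, nearer to the starts of T09F3.2 and eef-2. The genes mai-1, gpd-1, gpd-2, gpd-3, pyk-1 and ldh-1 are named after their values were seen.

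Among 5 gluconeogenesis genes, pck-1 and pyc-1 had a thresholded summit at the promoter, with pooled signals of 272 and 112. For pck-1, the phosphoenolpyruvate carboxykinase gene, the replicates gave 167 and 106. For pyc-1, the pyruvate carboxylase gene, they gave 66.6 and 49.6. The fructose bisphosphatase gene fbp-1 had a thresholded summit 1429 bp upstream, with 77.6 in the pooled list, 42.2 in replicate 1 and 40.2 in replicate 2, and is named after its values were seen. In the side branches 1 of 8 genes had one at the promoter, the glycogen synthase gene gsy-1 (90.8). Its summit had no core within 50 bp, unlike the 7 other promoter summits of these lists. Of all thresholded nuclear summits at promoters, 47.8% held the core. Of 6 genes around pyruvate dehydrogenase, the kinase gene pdhk-2 had one (75.1). Of 22 genes of the citric acid cycle, 4 had one. These were the aconitase gene aco-2 (83.6), the succinate dehydrogenase genes mev-1 (159) and sdha-1 (221), and the malate dehydrogenase gene mdh-1 (153), the summit of aco-2 being nearer to the start of eef-1B.1. Side by side these promoter shares were 30% for the 10 core glycolytic genes, 0% for the 9 further ones, 40% for gluconeogenesis and 18.2% for the citric acid cycle, against 1.97% of all protein-coding genes. They were 12.5% for the side branches and 16.7% around pyruvate dehydrogenase. By the gene window the 6 shares in this order were 50%, 55.6%, 80%, 31.8%, 25% and 16.7%, against 5.72% of all protein-coding genes. The core and further glycolytic genes were thus apart by this promoter window but not by the gene window. By the nearest gene start the shares were 50% and 11.1%, against 2.74% of all protein-coding genes. The 0% depends on the promoter chosen. The summits 1725 bp upstream of gpd-2 and 427 bp downstream of the ldh-1 start fall in a promoter of 2000 bp up and 500 bp down. No difference between these lists was tested.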

How the data were processed

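HIF-1 ChIP-seq peak lists of 2 replicates of whole L4 animals were used. Per the deposited file descriptions, the authors called peaks from ce11 alignments and 1 control for each replicate and for pooled reads, and deposited a set thresholded by irreproducible discovery rate. For the aligner, the peak caller and the threshold, name and version were not given in the sources used here. Per peak, the deposited signal is a value of the authors, whose formula is likewise not given, and served to order peaks of 1 list. The deposited −log10 q-value reaches a ceiling. Depth is unknown. Lists on ce10 were not used here, and no coordinates were converted.

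Summits (peak start plus offset, 1-based) were placed on Ensembl release 115 models of WBcel235, which is ce11, with Python 3.11.15, and no peak ran past a chromosome end. A gene's own summit is the strongest pooled one in its window for which its start is the nearest of all protein-coding starts. Replicate summits within 100 bp were matched to it. The core was searched on both strands within 50 bp, and overlapping hits count as 1 site. Translated coding sequences were aligned with Biopython 1.88. The window, promoter and core steps were tested on simulated summits and sequences. Counts are given beside the same counts over 19985 protein-coding genes, with no test, since there is 1 group. The members and lists were chosen with earlier results of these data known. All 10 members are named, and of other lists the genes with a thresholded promoter summit, with neighbours whose start is nearest to a summit in a member's window. Of 61 listed genes 1, fgt-1, matched no annotated name.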

Additional observations from a re-analysis of the deposited data

How the results depend on the processing

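The count of genes with a thresholded summit in the window stayed at 5 of 10 with windows of 2 kb upstream to the gene end and 10 kb upstream, by the nearest gene start, and with the 631 strongest peaks of either replicate alone (5 to 5 of 10 without replicate 1 or 2). Over all protein-coding genes the shares in this order were 3.3%, 8.17% and 2.74%, then 5.59% without replicate 1 and 5.67% without replicate 2. The genes differed between the replicates. Replicate 1 alone had gpi-1 in place of hxk-3, and replicate 2 alone counted ipgm-1 through the summit nearest to bag-1. In the stronger 50% of the thresholded peaks the window count was 3 (aldo-1, tpi-1 and ipgm-1, the last through the bag-1 summit) and the promoter count was 1 (aldo-1), since fewer peaks were used. The shares over all protein-coding genes were then 3.01% and 0.996%. The promoter count of 3 was 4 with a promoter reaching 2000 bp up and 500 bp down, which adds tpi-1, 4 with the start of any annotated transcript, which adds enol-1, and 2 with either replicate alone. Of all protein-coding genes these settings marked 2.71% and 2.19%, then 1.85% without replicate 1 and 1.94% without replicate 2. Of the 6 thresholded summits in the windows, the whole core lay within 50 bp at 5 (46.9% of all thresholded nuclear summits), within 25 bp at 3 (25.5%), within 100 bp at 5 (67.5%) and within 200 bp at 5 (78.4%, near the share of these summits). The aldo-1 core, centred 24 bp away, reaches past 25 bp. ACGTG alone lay at 5 (28.8%) and GCGTG alone at 0 (22.9%). All 6 had a summit in both replicates within 100 bp and 5 within 50 bp, and the pooled promoter count of 6 was 4 to 9 over the other promoter windows and 5 to 8 over single replicates. The share over all protein-coding genes moved as well. It was 12.2% in the pooled list, 8.32% to 18.5% over the other promoter windows, 20.5% without replicate 2 and 19.7% without replicate 1. No paired analysis was possible because there was only 1 group. Signal scales of separately called lists are not comparable, and with 2 replicates no spread was tested.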

Other observations

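Several summits in the windows of the glycolytic genes belonged, by the nearest gene start, to neighbouring genes. The strongest was that of bag-1, with a pooled signal of 78.9 (rank 306), located 172 bp upstream of bag-1 and 4934 bp upstream of ipgm-1, and it held no core within 50 bp. A pooled summit of 44.7 lay 500 bp upstream of T21B10.3, just past the end of enol-1, and held the core. One of 38.2 lay 590 bp upstream of ippk-1, in the window of tpi-1, and held none. One of 35.5 lay 239 bp upstream of F14B4.1, just past the end of hxk-1, and held the core; it was above the summit of 32.3 at hxk-1 itself.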
